A study of Mus musculus with 267 samples.

Results

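The enzymes and regulators of sugar metabolism formed a fixed set of 35 genes: glucose uptake and hexokinases, the glycolytic pathway, its control by fructose-2,6-bisphosphate, the fate of pyruvate, the pentose phosphate pathway, the tricarboxylic acid (TCA) cycle, citrate cleavage and the transcription factor gene Hif1a. Genomic regions were assigned to a gene when their centre lay within 25 kb of its start and no other protein-coding gene (of 21924 on the mm10 build) started nearer. The rule itself uses no measured value, and 1 kb on either side of the start separated promoter from distal regions. The rule found 177 of 67742 regions in C57BL/6J (C57) macrophages, 139 of 54022 in BALB/cJ (BALB), 158 of 68932 in NOD/ShiLtJ (NOD), 136 of 60175 in PWK/PhJ (PWK) and 151 of 54755 in SPRET/EiJ (SPRET). In C57 these were 44 promoter and 133 distal regions of 32 genes, with none for Hk1, Pfkfb2 and Sdha by gene start. Assignment by distance does not show that a region acts on the gene.

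The study profiled bone marrow-derived macrophages (BMDMs), grown for 7 days in medium with M-CSF from the marrow of mice aged 8 to 12 weeks. Cells were left untreated (basal) or given interleukin 4 (IL-4) at 20 ng/mL for 24 h in all 5 strains, and also for 1 h and 6 h in C57. Chromatin immunoprecipitation sequencing (ChIP-seq) measured H3K27ac, the acetylation mark of active promoters and enhancers, RNA polymerase II (Pol II), H3K4me2, H3K4me3 and the factors EGR2, STAT6, PPARg, CEBPb and PU.1. A second experiment set macrophages of Egr2 fl/fl mice, which carry floxed Egr2 alleles without Cre, against LyzM-Cre Egr2 fl/fl macrophages, in which a Cre driven from the LyzM locus, active in myeloid cells, is meant to delete Egr2, and both were basal or at 24 h of IL-4. Each histone mark had 2 libraries per group. For Pol II, C57 had 4 basal and 3 IL-4 libraries, BALB 3 basal and 2 IL-4, NOD 2 of each, and PWK and SPRET 3 of each.

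Glycolysis splits glucose into pyruvate in the cytosol. Hexokinase traps the sugar, phosphofructokinase commits it, and pyruvate kinase makes the last ATP of the pathway. PFKFB enzymes make or remove fructose-2,6-bisphosphate, the strongest known activator of phosphofructokinase. Pyruvate is either reduced to lactate by lactate dehydrogenase or oxidised in mitochondria, where the TCA cycle begins with citrate synthase, and PDK1 closes that entry by inhibiting pyruvate dehydrogenase. The pentose phosphate pathway draws off glucose-6-phosphate to make NADPH and ribose. HIF-1 is the classical activator of many glycolytic genes. Macrophages stimulated with lipopolysaccharide are known for high glycolysis and a broken TCA cycle, whereas IL-4-stimulated macrophages are known for sustained oxidative metabolism fed by glucose and fatty acids.

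Values are numbers of sequence tags in a 1 kb window (300 bp for the factors in the Egr2 experiment), scaled by the authors to 10000000 tags per library. Libraries held from 4691644 to 29050468 tags, so that 1 normalized tag stood for 0.469 to 2.91 reads. Macrophage marker genes carried promoter H3K27ac at all 7 markers (6 in SPRET), summing to 4251 to 4520 tags in basal C57 libraries and 2024 to 2131 at 24 h. No T cell or mast cell and basophil marker had a promoter region, and dendritic cell markers summed to between 0 and 13.7 tags in basal libraries and to between 3.38 and 75.8 at 24 h. Neutrophil markers had a promoter region at 1 of 4 (2 in SPRET), summing to between 19.2 and 353 tags in basal libraries and to between 39.4 and 198 at 24 h, and B cell markers at 1 or 2 of 3, with 55.9 to 151 and 31.4 to 109. Fibroblast markers summed to at most 9.70 tags, and the part of these other cell types in the results was not tested. The share of H3K27ac tags that lay in regions was lower in both IL-4 libraries of C57 (43.2% and 38.2%) than in the basal ones (65.4% and 59.6%), and likewise without overlap in NOD. In BALB it was 57.1% and 28.7% against 58.6% and 51.2%, in PWK 55.0% and 38.1% against 53.5% and 55.2%, and for SPRET 51.8% and 39.6% against 48.4% and 51.0%, with overlap in these strains. The median of all regions shifted on the log2 scale for H3K27ac (C57 -0.28, BALB -0.30, NOD -0.20, PWK -0.18, SPRET -0.09). Falls of single regions are given below as raw values unless stated, and so include these shifts. Over distal regions with at least 16 tags in the higher group, the median log2 change of the H3K27ac means was -0.59 in C57 and -0.43 in NOD. For Pol II the median of all regions shifted in BALB (0.32). The part of these shares in the falls was not tested. In bulk cells, fewer cells with a mark and less of it per cell cannot be told apart. Each strain had a region table of its own, so values are set side by side across strains (centres within 500 bp) without a test of the difference.

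Before IL-4, the metabolic genes had a higher median acetylation than all regions in C57, with a wide range among their promoters (15.6 to 554 tags). The median basal H3K27ac of their promoter regions was 138 tags against 90.6 over all promoter regions, and in distal regions 42.8 against 17.2. The same order held in BALB (145 against 104 at promoters), NOD (142 against 89.6), PWK (151 against 103) and SPRET (156 against 113). Pol II showed it as well, at 140 against 76.8 tags in C57 promoters and 171 against 106 in SPRET. Promoter H3K4me3 did not show it in every strain. It stood at 420 against 414 tags in C57, 425 against 435 in BALB and 373 against 378 in NOD. In PWK it was 447 against 416 and in SPRET 471 against 458. These medians are descriptions, and no test was made of the set.

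The promoter nearest the gene start was not always the strongest. By any protein-coding transcript start 34 of the 35 genes had a promoter region in C57, with Sdha, a subunit of succinate dehydrogenase, the exception, and 9 genes had their strongest promoter away from the gene start. Hk1 had 276 ± 124.5 tags of H3K27ac (SD, n = 2) at 39.6 kb into the gene, and Aldoa, the aldolase of glycolysis, 479 ± 119 at 1.46 kb. Ldha, which makes lactate, carried 231.5 ± 80.3 at 4.29 kb. Eno1 (enolase) at 554 ± 184 and Pkm (pyruvate kinase) at 491 ± 179 had higher means than Aldoa, and the myeloid hexokinase gene Hk3 stood at 434 ± 219. The phosphofructokinase genes differed in level: Pfkl, the liver type, stood at 132 and Pfkp, the platelet type, at 87.6, whereas the best promoter of Pfkm, the muscle type, held only 13.8. Pfkm nevertheless carried 269 tags of H3K4me3, the mark of active or poised starts. Idh3a, a subunit of mitochondrial isocitrate dehydrogenase, was alike, with 20.35 and 13.55 tags of H3K27ac beside 387.98 and 422.73 of H3K4me3.

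By pathway step, the pentose phosphate genes had the highest median at 336 tags of H3K27ac over 4 genes, with Pgd, the second NADPH-making enzyme of the pathway, at 399.59 and 385.76. Glucose uptake and hexokinases followed with a median of 258 over 4 genes, the glycolytic enzymes with 159 over 11 and the TCA cycle with 134 over 8. Within the TCA group the range was wide, from 16.95 at Idh3a to 382 at Idh1, the cytosolic isocitrate dehydrogenase. Acly, which splits citrate into acetyl-CoA for histone acetylation and lipid synthesis, stood at 115 tags of H3K27ac and 200.1 of Pol II. Hif1a had 349 ± 142 at a start 6.49 kb into the gene and 221 of Pol II there. Tags are per 1 kb of promoter and were not scaled to any gene length.

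Slc2a1 had the most regions in C57, with 2 promoter and 12 distal ones, followed by Hk3 with 1 and 12 and Pgd with 1 and 11. The remaining enzymes of the pathways are given by their strongest promoter, as mean H3K27ac in basal cells. Tpi1 (triose phosphate isomerase) held 225 tags in C57 and between 186 (NOD) and 362 (PWK) in the other strains. Gapdh held 159 in C57 and between 180.1 (SPRET) and 205 (PWK) elsewhere, and Gpi1 145 and between 115 (NOD) and 161 (SPRET). PWK had the highest mean at both Tpi1 and Gapdh. Pgam1 (phosphoglycerate mutase) held 163 in C57 and up to 230.5 in PWK. Pgk1 (phosphoglycerate kinase), X-linked, held 89.2 in C57, and no region of another strain lay within 500 bp of that promoter. Pfkfb2, an isoform of the fructose-2,6-bisphosphate enzymes, held 135 at a start 13.6 kb into the gene, Pfkfb3 156 and Pfkfb4 142.5. Among mitochondrial enzymes, Idh2 (isocitrate dehydrogenase) ranged from 110.5 in C57 to 184.5 in SPRET and Mdh2 from 148 in BALB to 234 in SPRET. Fh1 (fumarate hydratase) stood at 91.2 and Mdh1, the cytosolic malate dehydrogenase, at 72.2 in C57. All of these promoters had lower C57 means at 24 h of IL-4, for example 126 at Pgam1, 113 at Gapdh, 85.3 at Pfkfb2 and 59.5 at Idh2, and none was called.

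Basal levels differed in a few promoters of SPRET, a wild-derived strain of another mouse species. At Hk3 the C57 libraries held 588.88 and 279.52 tags of H3K27ac and 335.57 and 298.89 of H3K4me3. The nearest SPRET region, centred at -182 bp instead of 38 bp, held 112.85 and 102.07 of H3K27ac and 14.44 and 18.41 of H3K4me3. BALB, NOD and PWK stood at means of 389, 389.5 and 372 of H3K27ac, close to C57. Pdk1 went the other way, at 211.16 and 323.32 in SPRET against 118.05 and 138.33 in C57, with mean Pol II of 340.1 against 106. The windows differ between strains, and the part of this in the differences was not tested.

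After 24 h of IL-4 the promoters as a set moved with all other promoters. In C57 the median log2 change of H3K27ac was -0.63 over the 43 gene-set promoters past the minimum level and -0.65 over all, with 22 of the 43 above the median of all. In BALB it was -0.32 against -0.26 over all, in NOD -0.44 against -0.33, in PWK -0.27 against -0.20, and in SPRET -0.11 against -0.16. For Pol II the set stood at 0.00 against 0.06 over all promoters of C57, at 0.54 against 0.58 for BALB, at -0.16 against -0.07 for NOD, at -0.09 against -0.07 for PWK, and at -0.04 against -0.18 for SPRET. H3K4me2 at the same promoters moved by -0.94 in C57 against -0.88 over all promoters, and H3K4me3 by -0.27 against -0.31. The widest gap among these pairs was that of Pol II in SPRET.

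Promoter regions in which both IL-4 libraries lay below both basal libraries for H3K27ac numbered 30 of 44 in C57, where 48.3% of all promoter regions did so. BALB had 5 of 40 (19.4% of all), NOD 15 of 43 (24.7%), PWK 10 of 39 (25.2%) and SPRET 8 of 43 (24.9%). Those higher without overlap numbered 2 (C57, 8.6% of all), 2 (BALB, 4.66%), 0 (NOD, 9.08%), 3 (PWK, 6.5%) and 5 (SPRET, 7.79%). Promoters that were lower without overlap in C57 included those of Pgd, from 399.59 and 385.76 to 189.29 and 232.33, and of Pkm, from 364.99 and 617.5 to 201.17 and 299.28. Pgd also did not overlap in NOD and PWK, and Pkm not in BALB and SPRET. None of these single promoters passed the adjusted test below.

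The test of each region (limma on log2 normalized tags plus 1, Benjamini-Hochberg adjusted over all regions of the table, threshold 0.05) called few regions of these genes. For H3K27ac it called 0 of 177 in C57 (0% of all regions), 1 of 139 for BALB (2.26%), 0 of 158 for NOD (0.0566%), 0 of 136 for PWK (0.535%) and 1 of 151 for SPRET (1.19%). For Pol II the calls were 0 (C57, 0.319% of all), 0 (BALB, 0.707%), 0 (NOD, 0%), 2 (PWK, 1.72%) and 2 (SPRET, 1.05%). The 6 called regions belonged to Pfkp and Pfkfb4 and all rose. Before adjustment, 22, 5, 8, 7 and 6 regions in this strain order had a limma p under 0.05 for H3K27ac, and 5, 8, 5, 19 and 17 for Pol II. The shares of all regions were 22%, 11.9%, 12.4%, 10.6% and 12.2% for H3K27ac and 8.82%, 7.62%, 7.65%, 12% and 13% for Pol II. Count tests on the recovered reads called 0, 1, 0, 0 and 1 (edgeR) or 0, 2, 0, 1 and 1 (DESeq2) for H3K27ac and 0, 0, 0, 2 and 3 (edgeR) or 1, 0, 0, 3 and 6 (DESeq2) for Pol II.

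The Pol II libraries of C57, PWK and SPRET were treated as paired by replicate number, although the labels do not say what the numbers mark. In C57 a differently numbered pair deviated together at r 0.452, above the same-numbered pairs (0.191 to 0.395). For the other marks the paired fit is given only as an alternative at the end, where it called more regions. With the replicate as a block, limma called 0 of the C57 regions (0.809% of all; 5 had p under 0.05 without the block), 15 in PWK (9.78%) and 14 in SPRET (8.39%). The 15 in PWK all rose, and were 4 regions of Pfkfb4, 5 of Slc2a1, 2 of Hk3, 2 of Ldha and 1 each of Eno1 and Hk2. In SPRET 10 rose, 5 of them at Pfkfb4, 3 at Gapdh and 1 each at Eno1 and Pfkp, while 4 fell, 3 at Taldo1 and 1 at Hk2. Both counts, of 136 and 151 regions, lie near the share of all regions.

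The methylation marks gave no call in the fit without the replicate block. For H3K4me2 limma called 0 of these regions in each strain, where the share of all regions was 0.236% (C57), 0.0111% (BALB), 0.189% (NOD), 0.314% (PWK) and 0% (SPRET). For H3K4me3 it also called 0, with 0%, 0%, 0.0203%, 0.0349% and 0% of all regions. At unadjusted p under 0.05 stood 71, 2, 7, 6 and 56 regions for H3K4me2 and 30, 12, 2, 3 and 8 for H3K4me3. For H3K4me2 these were 40.1%, 1.44%, 4.43%, 4.41% and 37.1%, against 34%, 1.87%, 8.37%, 4.79% and 32.4% of all regions. For H3K4me3 they were 16.9%, 8.63%, 1.27%, 2.21% and 5.3%, against 19.5%, 6.31%, 5.41%, 4.75% and 6.17% of all. edgeR and DESeq2 called 0 for H3K4me2, and each called 1 in SPRET for H3K4me3 and 0 in the other strains.

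A rule of size was used beside the test: a 2.5-fold difference of the means plus 1, with at least 16 (H3K27ac) or 8 (Pol II) tags in the higher group. For H3K27ac it marked 1 higher region of these genes in C57 (3.46% of all regions), 1 for BALB (2.84%), 0 for NOD (3.24%), 3 for PWK (3.1%) and 1 for SPRET (2.64%). It marked 6 lower ones in C57 (7.55%), 1 for BALB (5.13%), 6 for NOD (5.14%), 0 for PWK (3.01%) and 0 for SPRET (0.939%). The higher Pol II regions were 0 (C57, 1.57%), 4 (BALB, 5.91%), 0 (NOD, 2.35%), 2 (PWK, 2.66%) and 1 (SPRET, 1.54%). Lower ones were 0 in every strain, with 1.66%, 0.929%, 1.25%, 0.932% and 0.805% of all regions. The shares of these genes' regions past the rule lay below those of all regions in each of these comparisons, and that difference was not tested.

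**Figure D1:**
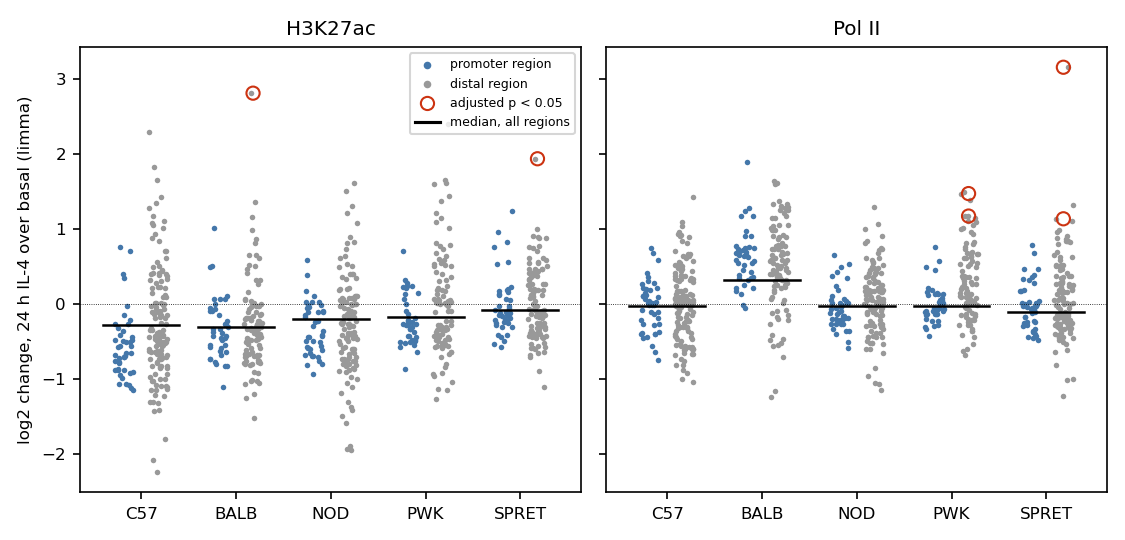
Change of H3K27ac (left) and Pol II (right) at 24 h of IL-4 on the log2 scale, 1 point per region of the 35 genes; promoter regions are blue, distal grey, red rings mark an adjusted p under 0.05 and black lines the median of all regions in the strain. The points spread about the line of all regions, and the highest ringed point, at 3.15, is the SPRET region upstream of Pfkfb4.

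Pfkfb4 encodes a bifunctional enzyme that sets fructose-2,6-bisphosphate, and a region about 2 kb upstream of it, between genes, had more Pol II after IL-4 in all 5 strains. The next gene start, Ucn2, lay 3.0 to 4.1 kb from the called centres. The reference sequence (GRCm38.p6, the mm10 build, plus strand) is printed for the 240 bases at the EGR2 site there and at the centre of the further SPRET region, because Pol II rose over these windows, and the capitals mark matches to the STAT6 pattern TTCNNNNGAA, which was searched as written and reads the same on both strands. The SPRET window is the reference sequence and not that of SPRET.
Pfkfb4 at -1979 bp, chr9:108989680-108989919: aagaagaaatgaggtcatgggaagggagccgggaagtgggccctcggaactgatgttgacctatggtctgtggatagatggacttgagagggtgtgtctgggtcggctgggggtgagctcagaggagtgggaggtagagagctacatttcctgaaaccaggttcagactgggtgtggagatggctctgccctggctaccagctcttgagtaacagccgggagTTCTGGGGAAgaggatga
Pfkfb4 at -2745 bp, chr9:108988914-108989153: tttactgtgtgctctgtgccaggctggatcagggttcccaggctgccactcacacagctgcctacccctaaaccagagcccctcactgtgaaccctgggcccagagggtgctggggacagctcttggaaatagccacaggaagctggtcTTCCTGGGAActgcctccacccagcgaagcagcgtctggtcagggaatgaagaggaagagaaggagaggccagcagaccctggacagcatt

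Pol II at this position was higher after IL-4 in every library of all 5 strains. C57 libraries held 40.56, 35.31, 50.91 and 45.57 tags at -2074 bp in basal cells and 93.37, 79.64 and 105.18 at 24 h. PWK held 57.84, 73.44 and 54.55 against 161.06, 169.17 and 186.43 at -1919 bp. No basal library reached the lowest IL-4 library of its strain. In BALB the values were 45.99, 55.16 and 21.88 against 100.18 and 145.21, and in NOD 52.55 and 49.30 against 93.85 and 124.16. In SPRET, at -1867 bp, they were 119.98, 181.21 and 151.98 against 358.31, 373.21 and 264.10, from a higher basal level than in the other strains. Of the 81 regions of these genes found in all 5 strains, this was the only one with Pol II higher without overlap in all 5, where 0.884% of all such regions were; none was lower in all 5 (0.236% of all).

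The rise passed the adjusted limma test in PWK (log2 1.47, SE 0.25, adjusted p = 0.0082) and in SPRET at -1867 bp (log2 1.13, adjusted p = 0.0447). It did not pass in C57 (2.13-fold, log2 1.09, SE 0.32, adjusted p = 0.197), BALB (2.94-fold, adjusted p = 0.386) or NOD (2.12-fold, adjusted p = 0.439). A second PWK region at -1620 bp, whose window shares reads with the first, rose by 1.17 (adjusted p = 0.0310). In PWK the call at -1919 bp was lost on leaving out IL-4 replicate 2 (adjusted p = 0.0847), IL-4 replicate 3 (0.0697) or basal replicate 3 (0.0688). The calls at -1620 bp and at -1867 bp in SPRET were lost without any 1 library.

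SPRET had a further region at -2745 bp that stood apart from the rest of the gene set. Pol II there rose from 15.48, 33.50 and 26.70 tags to 194.37, 293.34 and 191.15, which is 8.67-fold (log2 3.15, SE 0.30, adjusted p = 0.0022), and the call held without any 1 library. H3K27ac rose from 87.20 and 229.82 to 595.96 and 496.46 (3.43-fold, log2 1.93, SE 0.42, adjusted p = 0.0335). That call was lost on leaving out any 1 of its 4 libraries, with adjusted p from 0.0867 to 0.831. Peaks of PU.1, STAT6 and EGR2 lay in the region at 24 h and none of them in basal cells. Whether the other strains lack this region was not tested, since their tables list different windows.

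H3K27ac at -2 kb had a higher mean with IL-4 in every strain, and the difference was largest in PWK. PWK went from 101.29 and 133.89 to 486.22 and 265.32 (3.18-fold, adjusted p = 0.203). BALB went from 141.83 and 157.88 to 384.03 and 194.84, and NOD from 137.15 and 222.26 to 316.08 and 269.60. In C57 the groups overlapped, at 142.47 and 238.16 against 204.57 and 258.58. The promoter itself had higher Pol II in PWK, from 213.74, 201.43 and 175.77 to 354.48, 309.24 and 334.38, and in SPRET, from 251.58, 331.96 and 296.25 to 470.71, 516.70 and 413.69. Neither promoter passed without the block (adjusted p = 0.139 and 0.166), and both passed in the paired fit with the replicate block (adjusted p = 0.013 and 0.004).

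Inside the gene the regions differed in direction. The intronic region at 3.6 kb had lower H3K27ac without overlap in C57, from 97.02 and 88.42 to 44.99 and 44.63 tags, and the ratio of the means was 0.489 there, 0.533 in BALB, 0.55 in NOD and 0.624 in SPRET. In PWK a region at 5.4 kb was higher, from 12.02 and 13.31 to 28.96 and 44.86 for H3K27ac and from 5.64, 6.29 and 11.36 to 23.73, 19.39 and 25.66 for Pol II.

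**Figure D2:**
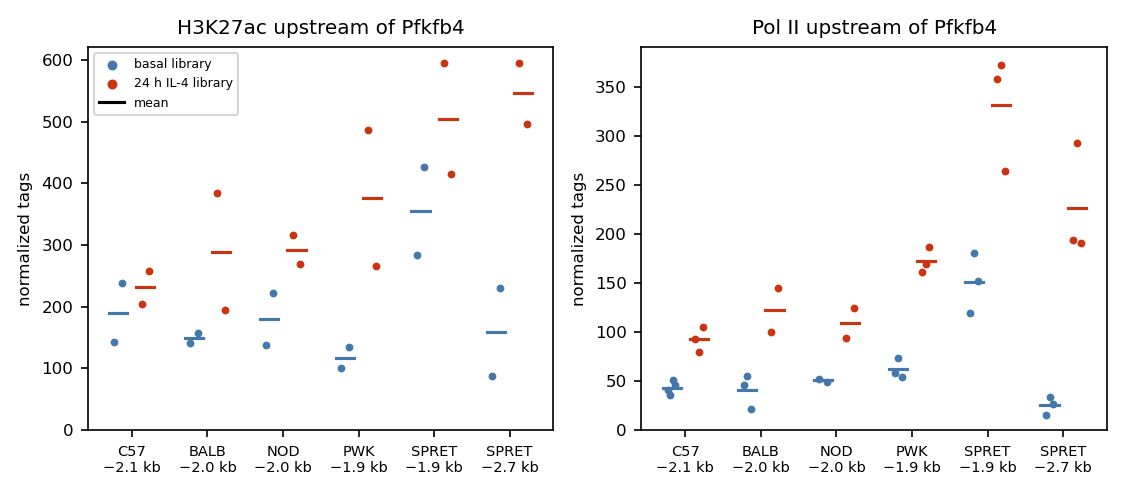
Normalized tags of H3K27ac (left) and Pol II (right) upstream of Pfkfb4 in each library, basal in blue and 24 h of IL-4 in red, with lines at the group means. The Pol II points of the groups do not overlap in any strain, and the further SPRET region goes from at most 33.50 tags to at least 191.15.

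In the C57 time course, Pol II at -2005 bp stood at 47.42, 50.55, 61.10 and 52.66 tags in basal cells, at 102.06 in the single 1 h library, at 90.90 and 106.77 at 6 h and at 102.71, 91.93 and 120.57 at 24 h. The 1 h value was thus already at the later level, although 1 library allows no test. The basal and 24 h libraries are those of the C57 strain comparison and are no independent repeat (24 h log2 0.97, adjusted p = 0.209). EGR2 tags at -1979 bp went from 50.58 and 51.03 to 66.84 and 220.85 at 1 h, 134.43 and 252.11 at 6 h and 222.62 and 161.29 at 24 h, with no call at 24 h (log2 1.88, SE 0.68, adjusted p = 0.838). A C57 EGR2 peak was called at every time, basal included, a STAT6 peak at 1, 6 and 24 h but not in basal cells, and a PPARg peak at 24 h in all 5 strains and in basal cells of SPRET.

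Pfkp encodes the platelet type of phosphofructokinase, the committing enzyme of glycolysis. A region 3.9 kb upstream, between genes and 104.6 kb from the next gene start, was nearly empty in basal cells and acetylated with IL-4. The 240 reference bases at its centre are given because EGR2, STAT6, PPARg and PU.1 peaks appeared there at 24 h; they hold no match to the STAT6 pattern or to the EGR core GTGGGCG on either strand.
Pfkp at -3937 bp, chr13:6652595-6652834, plus strand: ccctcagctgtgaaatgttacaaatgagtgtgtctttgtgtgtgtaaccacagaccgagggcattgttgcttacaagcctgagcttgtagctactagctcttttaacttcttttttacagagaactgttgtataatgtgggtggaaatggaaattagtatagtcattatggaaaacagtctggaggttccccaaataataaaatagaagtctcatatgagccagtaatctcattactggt

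The basal C57 libraries held 1.36 and 0 tags of H3K27ac in this region. They were followed by 5.41 and 5.85 at 1 h, 12.32 and 18.26 at 6 h and 33.95 and 40.69 at 24 h. Each time point lay above the one before with no overlap. limma called all 3 times, with log2 changes of 2.11 (SE 0.62, adjusted p = 0.0409), 3.38 (adjusted p = 0.0050) and 4.64 (adjusted p = 0.0011). Since only 2 basal reads were found, the ratio of reads per library size is the safer measure, at 8.22 (95% counting interval 2.04 to 71.8), 22.5 (5.88 to 191) and 54.3 (14.7 to 454). The call at 24 h held without any 1 library. The call at 1 h was lost without basal replicate 2 (adjusted p = 0.269), 1 h replicate 2 (0.106), or 6 h replicate 1 (0.0790) or 2 (0.0793), and that at 6 h without basal replicate 2 (0.0545), 6 h replicate 1 (0.0696) or 6 h replicate 2 (0.102).

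BALB, with libraries of its own, gave 1.47 and 2.38 tags in basal cells and 36.14 and 10.00 at 24 h (log2 2.81, SE 0.60, adjusted p = 0.0006). Without IL-4 replicate 1 the call was lost (adjusted p = 0.122). The strain tables of C57, NOD, PWK and SPRET listed no region at this position, so that its level there is not given. Pol II in the C57 time course stayed low, at 1.25, 0.80, 0 and 2.03 in basal cells, 7.67 and 6.83 at 6 h and 8.0, 1.82 and 5.13 at 24 h.

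At the Pfkp promoter itself the changes were smaller, and they are shown for 3 strains in which they had the same sign. Values of NOD and PWK are not given here, and in NOD no promoter region of these genes was higher without overlap. The SPRET window differs from that of C57. C57 had 61.74 and 74.16 tags of H3K27ac at -57 bp in basal cells and 116.29 and 114.85 at 24 h (adjusted p = 0.276), and the 2 C57 promoter regions that were higher without overlap were both of this gene. BALB went from 69.08 and 61.36 to 162.65 and 108.14, and SPRET, at 902 bp, from 123.96 and 154.75 to 286.52 and 210.00. Pol II at that SPRET region went from 56.12, 85.27 and 61.10 to 115.78, 115.21 and 115.43, and was called in the paired fit with the replicate block (adjusted p = 0.010). In BALB, Pol II at 919 bp went from 40.24, 55.75 and 21.88 to 200.36 and 96.80 (3.71-fold, adjusted p = 0.210), one of the 4 BALB regions past the rule of size. The median of all BALB regions shifted upward for Pol II as given above, and IL-4 replicate 1 of that strain was the shallowest library, at 4691644 tags.

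The region 3.9 kb upstream of Pfkp was also 1 of the 4677 sites that gained EGR2 with IL-4 and were measured with and without Egr2. In Egr2 fl/fl cells H3K27ac went from 2.56 and 0 tags to 21.11 and 26.33 with IL-4, and in LyzM-Cre Egr2 fl/fl cells from 1.00 and 0 to 3.12 and 4.64. The IL-4-treated groups did not overlap. The genotype effect at 24 h was a log2 change of -2.35 (SE 0.67, limma adjusted p = 0.0185; 24.7% of all sites were called), and the ratio of reads was 5.93 (95% counting interval 3.10 to 12.5) in favour of Egr2 fl/fl. H3K4me2 gave 11.72 and 6.29 rising to 36.52 and 23.12 in Egr2 fl/fl against 4.23 and 3.50 and then 5.78 and 7.69 with Cre, a genotype effect of -1.97 (SE 0.49, adjusted p = 0.0023; 9.09% of all sites). Over all sites the median genotype effect was -0.50 for H3K27ac and -0.16 for H3K4me2. The change of the IL-4 effect between genotypes, the interaction, did not pass for H3K27ac (-1.93, adjusted p = 0.40). The H3K27ac call was lost without Egr2 fl/fl IL-4 replicate 1 (adjusted p = 0.0907), replicate 2 (0.129) or Cre IL-4 replicate 1 (0.108), and the H3K4me2 call without Egr2 fl/fl IL-4 replicate 1 (0.148).

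Factor tags at the site (300 bp windows) had the same order. STAT6 stood at 7.47 and 7.08 in IL-4-treated Egr2 fl/fl cells and at 1.03 and 0 with Cre (adjusted p = 0.190; 0.0214% of all sites called). CEBPb stood at 24.19 and 10.56 against 0.68 and 4.29 (adjusted p = 0.0935; 8.25% of all sites). PU.1 stood at 12.85 and 20.40 against 5.57 and 9.59 (adjusted p = 0.271; 9.45%). PPARg was at 1.02 and 12.61 against 4.17 and 0, which overlap (0% of all sites called). Deletion of Egr2 was not checked here, because these values cover only the sites that gained EGR2.

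**Figure D3:**
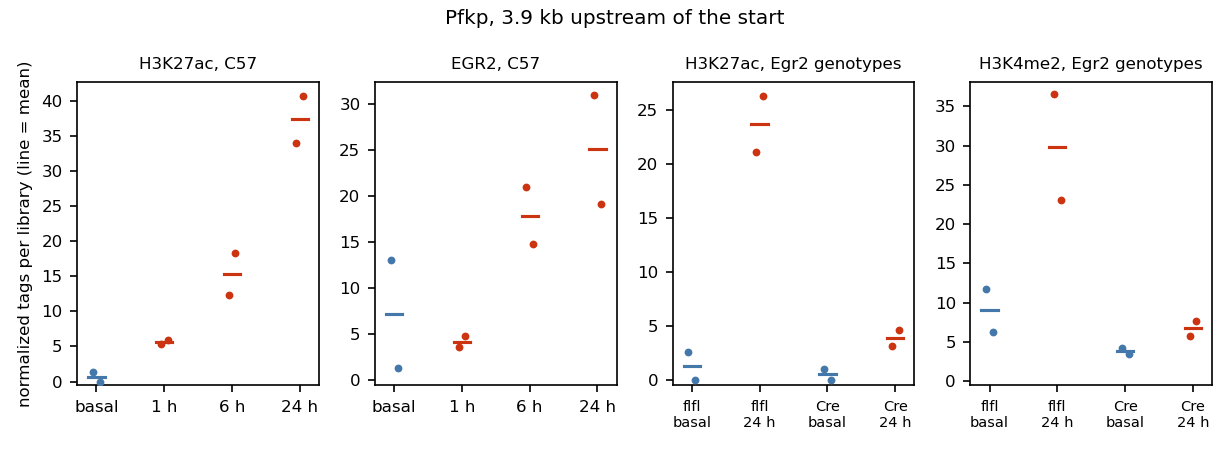
Normalized tags per library 3.9 kb upstream of Pfkp, with lines at the means, from left to right H3K27ac and EGR2 in the C57 time course, then H3K27ac and H3K4me2 in Egr2 fl/fl (flfl) and LyzM-Cre Egr2 fl/fl (Cre) cells, basal in blue and IL-4 in red. H3K27ac goes from at most 1.36 tags to at least 33.95 over 24 h, and stays at or below 4.64 with Cre.

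Hk2, the inducible hexokinase that binds mitochondria, had a strong intronic region 10.1 kb from its start with lower H3K27ac after IL-4 in all 5 strains. In C57 it held 443.69 and 471.33 tags of H3K27ac in basal cells and 151.09 and 190.99 at 24 h (2.67-fold lower, adjusted p = 0.117). It was 1.99-fold lower in BALB (307.17 and 326.47 against 188.25 and 128.62), 1.65-fold in NOD (304.22 and 414.35 against 232.90 and 202.62), 1.76-fold in PWK (190.55 and 268.57 against 125.93 and 134.57) and 1.38-fold in SPRET (265.01 and 356.25 against 208.06 and 241.23). The groups did not overlap in any strain. It was the only 1 of the 81 regions found in all 5 strains that was lower without overlap in all (8.44% of all such regions were), and 0 were higher (2.18% of all). In C57 its fall was already there at 1 h, at 115.95 and 87.09 tags from 443.69 and 472.04 in the time-course windows (log2 -2.18, SE 0.57, adjusted p = 0.0281), or -1.55 relative to the median of all regions. With median-ratio scaling the 1 h value was -1.37 and not called (adjusted p = 0.0925), and the call was lost without either basal or either 6 h library.

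A second intronic region of Hk2, 23.3 kb from the start, rose at 6 h. H3K27ac was 4.75 and 4.28 in basal C57 cells, 16.23 and 3.79 at 1 h, 33.88 and 25.56 at 6 h and 10.19 and 2.63 at 24 h. The 6 h rise was called (log2 2.47, SE 0.70, adjusted p = 0.0481) and was lost without either basal or either 6 h library (adjusted p from 0.0652 to 0.347). The 24 h libraries overlapped the basal ones. In the Egr2 experiment the overlapping window held 15.34 and 12.22 tags in basal Egr2 fl/fl cells and 31.16 and 21.19 at 24 h. The groups did not overlap, and the share of all sites without overlap is not given here. limma did not call this IL-4 effect (log2 0.86, adjusted p = 0.148). The ratio of reads was 1.84 (95% counting interval 1.21 to 2.86, which covers counting error only).

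Slc2a1 encodes GLUT1, the main glucose carrier of macrophages, and H3K27ac in its introns had higher means after IL-4. At 10.1 kb the C57 libraries went from 27.14 and 20.68 tags of H3K27ac to 74.70 and 50.54 (2.55-fold, adjusted p = 0.173), the only region of these genes past the rule of size upward in C57. PWK went from 42.92 and 28.97 to 84.85 and 68.72, and SPRET from 88.05 and 100.75 to 198.36 and 101.23. The BALB groups overlapped, at 55.11 and 25.02 against 115.96 and 37.63. A region at 3.4 kb, in the UTR, was called at 1 h, from 4.07 and 2.85 to 10.82 and 27.88 (log2 2.06, SE 0.63, adjusted p = 0.0450). That call was lost without either basal library, 1 h replicate 2 (adjusted p = 0.216) or either 6 h library. At 18.2 kb the highest values were those of 6 h, at 276.46 and 203.86 against 55.63 and 77.01 in basal cells (log2 1.84, adjusted p = 0.119), followed by 61.12 and 124.04 at 24 h.

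Pol II along the Slc2a1 introns of PWK was higher by 1.71- to 2.01-fold over 5 regions from 7.1 to 18.7 kb. At 17.4 kb the basal libraries held 91.0, 45.46 and 34.85 tags and the IL-4 libraries 167.54, 77.58 and 101.77. The groups overlapped, because basal replicate 1 lay above IL-4 replicate 2, but each IL-4 library lay above the basal library of its number. The paired fit with the replicate block called all 5 (adjusted p from 0.00014 to 0.0011), and the fit without it called none of them. Pol II at the Slc2a1 promoter overlapped between the groups, with means of 223 and 240.1 in C57, 330 and 346 for PWK, and 180 and 280.5 for BALB.

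Among the lower regions past the rule of size, an intronic region of Gpi1 15.5 kb from its start repeated across strains. Gpi1 is the isomerase after hexokinase. C57 had 14.93 and 46.35 tags of H3K27ac in basal cells and 2.55 and 8.53 at 24 h, BALB 14.70 and 29.19 against 7.53 and 5.72, and NOD 27.43 and 53.18 against 5.79 and 14.63. PWK, at 32.62 and 33.67 against 13.47 and 18.13, was lower by 2.03-fold and so missed the rule. It was the only 1 of 136 regions found in at least 3 strains to pass the rule in the same direction in 3, and 0 passed it in opposite directions. The share of all matched regions that did so is not given here, so this count is no result about these genes. limma did not call the Gpi1 region in any strain. The next gene start, Pdcd2l, lay 18.1 kb from its C57 centre.

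Pfkfb3, whose enzyme favours synthesis of fructose-2,6-bisphosphate, had lower intronic regions at 23.8 kb, from 49.53 and 22.10 to 7.64 and 6.56 in C57 and from 60.68 and 26.99 to 11.57 and 9.01 in NOD. At 9.5 kb the C57 libraries went from 33.92 and 32.09 to 14.43 and 5.25. Pfkl, the liver type of phosphofructokinase, had 54.27 and 17.11 against 14.43 and 11.16 at 5.6 kb upstream. In NOD the lower regions also included 1 of Fh1 12.2 kb upstream, in an intron of Kmo, from 14.96 and 34.93 to 3.62 and 7.32, and 1 in a coding exon of Pgd, from 23.27 and 46.04 to 7.96 and 18.01. With median-ratio scaling the lower regions past the rule went from 6 to 3 in C57 and from 6 to 3 in NOD. Which ones remained is not given here.

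**Figure D4:**
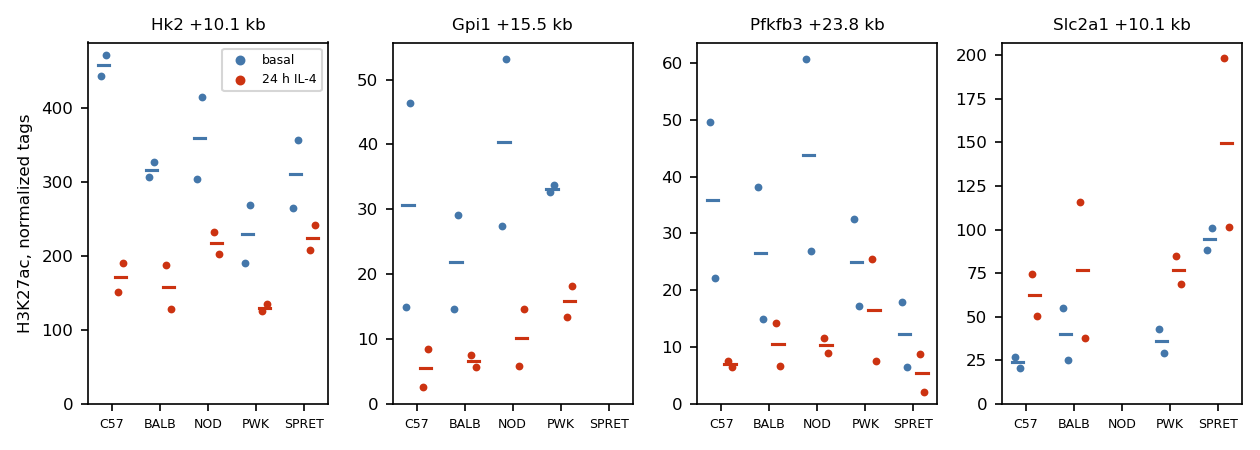
H3K27ac in normalized tags at 4 intronic regions in each strain, basal libraries in blue and 24 h of IL-4 in red, with lines at the means; an empty place means that no region of the strain lay within 500 bp. Hk2, Gpi1 and Pfkfb3 lie lower with IL-4, while Slc2a1 lies higher in C57 and PWK, and each panel has its own scale.

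In lower glycolysis, a region 7.4 kb upstream of Ldha had more Pol II with IL-4 in 3 strains. The reference bases at its EGR2 site hold 1 match to the STAT6 pattern, in capitals.
Ldha at -7508 bp, chr7:46833848-46834087, plus strand: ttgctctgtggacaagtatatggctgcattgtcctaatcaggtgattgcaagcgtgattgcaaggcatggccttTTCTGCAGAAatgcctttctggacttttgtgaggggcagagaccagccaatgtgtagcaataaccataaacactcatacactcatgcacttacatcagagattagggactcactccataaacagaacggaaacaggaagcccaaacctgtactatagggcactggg

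PWK had 66.31, 48.26 and 37.12 tags of Pol II there in basal cells and 127.99, 77.58 and 98.35 at 24 h, called in the paired fit with the replicate block (adjusted p = 0.0013). NOD had 27.90 and 29.44 against 55.40 and 60.73, and BALB 30.02, 21.94 and 20.78 against 46.89 and 43.64. The groups did not overlap in these strains. Values of C57 and SPRET are not given here, nor is the share of all regions without overlap. The median of all BALB regions was also higher for Pol II (log2 0.32). H3K27ac in NOD was 192.84 and 120.65 against 303.78 and 238.65. The site gained STAT6 in Egr2 fl/fl cells, from 6.19 and 2.39 to 59.76 and 24.79 (log2 3.0, limma adjusted p = 0.0032). The share of all sites called for this IL-4 effect is not given here. All 4677 sites together held 0.257% and 0.168% of the STAT6 tags in basal Egr2 fl/fl libraries and 0.584% and 0.473% at 24 h. With Cre, STAT6 at the Ldha site stood at 29.90 and 7.89 (genotype effect -1.26, adjusted p = 0.353), where the median over all sites was -0.79. PPARg stood at 137.23 and 75.63 against 15.29 and 43.93 (-1.93, adjusted p = 0.341), without overlap and without a call. Its median genotype effect over all sites was -1.28. H3K27ac hardly differed by genotype there, at 250.26 and 280.67 against 218.19 and 234.48.

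In the paired fit with the replicate block, Pol II rose at 3 regions of Gapdh (glyceraldehyde-3-phosphate dehydrogenase) in SPRET and at 1 of Eno1 in both SPRET and PWK. At 1.6 kb into Gapdh, SPRET went from 57.09, 108.11 and 83.18 to 140.28, 173.88 and 164.37 (1.92-fold, adjusted p = 0.0015 with the block). In BALB, Eno1 at 3.3 kb went from 47.27, 37.37 and 17.50 to 91.65 and 104.74 (2.83-fold). The strongest Eno1 promoter overlapped in H3K27ac, at 684.54 and 424.27 against 449.03 and 218.55 in C57. Upstream of Eno1 by 9.3 kb, the 1 h libraries lay at 15.46 and 19.28 tags against 50.88 and 92.70 (log2 -1.93, SE 0.56, adjusted p = 0.0394). With median-ratio scaling this was -1.14 and not called (adjusted p = 0.231).

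The pentose phosphate genes had lower promoter H3K27ac in C57 at all 4 members, with ratios of the means from 0.459 to 0.606, none of them called. Over all C57 promoters past the minimum the median log2 change was -0.65, and 48.3% of promoters were lower without overlap. Tkt (transketolase) went from a mean of 391 ± 61.0 to 235, Taldo1 (transaldolase) from 282 to 170 and G6pdx, the entry enzyme, from 190 to 86.7. In SPRET the Taldo1 promoter also lost Pol II, from 282.54, 333.48 and 336.30 to 197.75, 243.15 and 242.86 (1.39-fold lower, adjusted p = 0.0307 in the paired fit with the replicate block). The Taldo1 regions at 12.4 kb upstream and at 2.2 kb fell as well, by 2.15- and 1.67-fold in the same fit. No Taldo1 region was called without the block. Over all sites that gained EGR2, the median genotype effect for CEBPb was -1.14, and 8.25% of sites were called. At a site in G6pdx 4.3 kb from its start, CEBPb stood at 18.75 and 22.75 tags in IL-4-treated Egr2 fl/fl cells and at 2.04 and 0 with Cre (log2 -3.63, SE 1.02, adjusted p = 0.0183; ratio of reads 16.4, 95% counting interval 5.35 to 81.8). That call was lost without either Egr2 fl/fl IL-4 library or Cre IL-4 replicate 2, and H3K27ac overlapped there, at 247.25 and 309.57 against 171.43 and 260.02. In basal cells CEBPb at this site was also lower with Cre, at 0.73 and 0 against 3.26 and 5.71 tags (1 against 12 reads). The interaction was not called (log2 -1.61). The site lies in introns of both G6pdx and Ikbkg.

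No region of a TCA cycle gene was called by limma without the block for H3K27ac or Pol II in any strain or at any time. With the block, none was called for Pol II of C57, PWK and SPRET. Their 8 promoter ratios of the H3K27ac means in C57 ran from 0.543 to 1.66, with a median of 0.731, and those of Pol II from 0.984 to 1.60. Cs (citrate synthase) went from 206 to 147 tags, Ogdh (oxoglutarate dehydrogenase) from 311 to 189 and Mdh2 (malate dehydrogenase) from 157 to 127. Idh3a was the exception in sign, at 20.35 and 13.55 against 37.35 and 20.35, which meet at 20.35, and in SPRET at means of 24.7 against 59.8. Hif1a likewise had no call, at 349 against 251 tags of H3K27ac and 221 against 230 of Pol II in C57.

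Over the C57 time course, limma called 4 of 196 regions of these genes at 1 h (9.72% of all regions), 2 at 6 h (5.13%) and 1 at 24 h (1.45%) for H3K27ac. The 4 at 1 h were those of Pfkp and Slc2a1, which rose, and of Hk2 and Eno1, which fell. The 2 at 6 h were those of Pfkp and Hk2, and the 1 at 24 h that of Pfkp. Shares of these genes were thus below the share of all regions at each time, without a test of that difference. The 1 h libraries were unequal, with 44.0% and 20.5% of their tags in regions, the lowest share being that of replicate 2. Without 1 h replicate 2 there was 1 call at 1 h, a fall, and without replicate 1 there were 77, of which 74 fell. The share of all regions called in those fits is not given here. edgeR called 3, 4 and 1 and DESeq2 5, 8 and 1. Pol II gave 0 calls at 6 h (0.566% of all regions) and 0 at 24 h (0.677%). At unadjusted p under 0.05 stood 9 and 8 regions (10.2% and 9.55% of all regions). edgeR called 0 at both times and DESeq2 0 and 1.

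EGR2 binding itself was counted at 81 of 30675 sites near these genes. limma called 0 of them at 1, 6 and 24 h (0%, 0% and 0% of all sites). At unadjusted p under 0.05 stood 2, 4 and 4 (3.54%, 3.81% and 3.38% of all sites). edgeR called 0, and DESeq2 1, 1 and 0. The libraries of a time differed, with 5.38% and 13.1% of the tags in sites at 1 h. At the Pfkp site EGR2 was 13.11 and 1.34 in basal cells, 3.61 and 4.82 at 1 h, 20.95 and 14.77 at 6 h and 30.97 and 19.20 at 24 h (adjusted p = 0.838). The 24 h libraries lay above both basal ones. That order follows from the choice of the site, which was listed for gaining EGR2 at 24 h, and is no separate result.

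By called peaks, the factors moved onto these genes about as onto the genome. Of the 196 time-course regions, 50 gained an EGR2 peak at 24 h (25.5%, against 24.1% of all regions), 39 a STAT6 peak (19.9% against 14.8%) and 69 a PPARg peak (35.2% against 29.9%). CEBPb was gained in 34 (17.3% against 17.9%) and PU.1 in 11 (5.61% against 7.46%). Peaks were lost in 1 region for EGR2 (0.51% against 0.378% of all regions), 1 for PPARg (0.51% against 0.803%), 1 for CEBPb (0.51% against 0.634%), 12 for STAT6 (6.12% against 6.85%) and 9 for PU.1 (4.59% against 4.63%). The 4 regions that gained all of EGR2, STAT6 and PPARg were those upstream of Pfkp, the promoters of Pgam1 and Gapdh, and an intronic one of Hk2 at 21.2 kb. The share of all regions that gained all 3 is not given here. The median log2 change of H3K27ac at 24 h was -0.47 in the 79 regions that gained none of the 3, -0.49 in the 80 with 1, -0.14 in the 33 with 2 and -0.42 in the 4 with all 3. Over all time-course regions the median was -0.22, and it is not given by number of factors gained.

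Peaks near these genes made up 0.227% of all peaks over the 54 lists. PPARg peaks near them numbered 20 in basal C57 cells and 102 at 24 h, while NOD had 37 basal and 99 at 24 h, PWK 53 and 100, and SPRET 54 and 50. EGR2 peaks went from 29 to 77 in C57 and from 39 to 82 in SPRET, but from 67 to 44 in NOD. These numbers follow the size of each list and are no comparison between strains.

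Of the 46 other genes of the same pathways fixed beside the set, 43 had regions in C57 (130 regions, with 100 in BALB, 119 in NOD, 115 in PWK and 131 in SPRET). limma called none of them in C57, NOD, PWK and SPRET, and 3 up and 1 down in BALB for H3K27ac, where 2.26% of all regions were called. The rule of size marked 2 higher and 7 lower in C57, 2 higher and 0 lower in BALB, 3 and 0 for NOD, 2 and 3 for PWK, and 3 and 1 for SPRET with H3K27ac. As shares of their regions the higher ones made up 1.54% to 2.52% and the lower ones 0% to 5.38%, against 2.64% to 3.46% and 0.939% to 7.55% of all regions. Acod1, which makes itaconate from a TCA intermediate, had a region 4.0 kb upstream that rose in BALB from 21.31 and 2.98 to 145.33 and 19.53 tags (log2 2.54, adjusted p = 0.001). Its groups overlapped there, and C57 stood at 22.39 and 4.28 against 146.00 and 29.53. Vhl, whose product marks HIF for destruction, had a region 1.6 kb upstream that rose in BALB from 5.88 and 6.55 to 73.04 and 51.93 (log2 3.12) and stood at 13.30 and 6.35 against 46.29 and 42.21 in NOD. The promoter of Slc2a3, a second glucose carrier, was lower in C57, at 90.91 and 97.69 against 33.10 and 22.31, without a call.

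The promoter sequences of the set were read from RefSeq (build GRCm38.p6, 250 bases before to 50 after each start), which matched 34 of 35 genes in 55 windows. The core of the HIF response element, ACGTG, lay on either strand in 19 of the 34 genes (55.9%), against 21.8% of 27025 genes with a window. GCGTG, the other form, lay in 24 (70.6% against 35.2%), and the EGR core GTGGGCG in 9 (26.5% against 8.99%). The windows of the set were richer in G and C, at a median of 61.0% against 52.7%, and the part of this was not tested. Ldha, a classical HIF target, and Slc2a1 are shown with ACGTG and its reverse complement CACGT in capitals, because they hold 5 and 1 matches. Overlapping matches on both strands, as in CACGTG, count separately. The Pfkfb4 window, where Pol II rose in PWK and SPRET, held none.
Ldha, chr7:46845554-46845853, plus strand: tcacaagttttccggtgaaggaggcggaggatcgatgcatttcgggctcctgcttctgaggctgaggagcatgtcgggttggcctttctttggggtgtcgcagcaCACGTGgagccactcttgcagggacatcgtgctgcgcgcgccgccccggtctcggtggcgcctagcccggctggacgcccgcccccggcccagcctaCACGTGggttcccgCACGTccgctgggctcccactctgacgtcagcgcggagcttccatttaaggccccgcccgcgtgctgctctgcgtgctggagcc
Slc2a1, chr4:119108495-119108794, plus strand: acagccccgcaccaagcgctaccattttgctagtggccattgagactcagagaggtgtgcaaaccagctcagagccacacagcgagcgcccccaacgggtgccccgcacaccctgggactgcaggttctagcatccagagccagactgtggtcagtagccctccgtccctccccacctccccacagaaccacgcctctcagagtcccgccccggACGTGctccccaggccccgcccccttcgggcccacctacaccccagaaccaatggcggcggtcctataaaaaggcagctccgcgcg

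A match of these letters is a description of the sequence and does not show binding. The same ACGTG letters lay in 49 of 196 time-course regions of the set (25%, against 15.5% of all), and the STAT6 pattern in 9 of 196 (4.59% against 7.18%). Among the 5 sites near these genes that gained EGR2 at 24 h, 2 held the STAT6 pattern in the 240 central bases, at Ldha and at Hk3, and 19.2% of the 4677 sites did. The Hk3 site lies 18.8 kb upstream in an intron of Uimc1. Of the 5 sites, limma called the genotype effect at 1 for H3K27ac (24.7% of all sites), 1 for H3K4me2 (9.09%) and 1 for CEBPb (8.25%). It called 0 for STAT6 (0.0214%), PPARg (0%) and PU.1 (9.45%). For these 3 factors 1 site each had an unadjusted p under 0.05, where 15%, 14.3% and 24.6% of all sites did. With 5 sites, these counts cannot be told from the shares of all sites.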

How the data were processed

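ChIP-seq libraries were made from cultured bone marrow-derived macrophages. Of 267 samples, 155 libraries had values in 9 tables and 54 peak lists were used. Per the authors, each library was aligned to its own strain's genome (Bowtie2), moved into mm10 coordinates (MMARGE) and counted as tags (HOMER). The signal values deposited by the authors are tags per window, scaled to 10000000 tags of each library (1 kb windows, or 300 bp for factors in the Egr2 experiment). Peaks had been kept by the authors where they were reproducible between replicates, and the deposited peak score was used only to rank them. Whole reads could be recovered from 100% of the signal values as deposited, within 0.1 read.

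Regions were assigned to the nearest protein-coding gene start (GENCODE vM21, mm10). Groups were compared with limma 3.58.1 (lmFit and eBayes with trend) in R 4.3.3 on log2(normalized tags + 1), with Benjamini-Hochberg adjustment over all regions of a table and no filter. All adjusted p-values come from this test unless edgeR or DESeq2 is named. edgeR 4.0.16 and DESeq2 1.42.0 on the recovered reads, a pseudocount of 5, median-ratio scaling, a filter on low regions, a 2-fold threshold, a distance of 10 kb, a replicate block and leaving out each library were alternatives. Counting intervals are exact at 95% and cover counting error only. The fits were tested on simulated data. The members and lists were chosen with earlier results of these data known. Regions are named that limma called, or that passed the rule of size with the largest change without overlap, that passed it in at least 3 strains, or that gained EGR2, STAT6 or PPARg peaks. The other regions named, among them the Slc2a1 introns and the Ldha upstream region, were chosen after their values were seen.

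Same-numbered Pol II libraries deviated together in C57 (r of the deviations from the group means 0.191 to 0.395 over 3 pairs), PWK (0.438 to 0.631) and SPRET (0.414 to 0.442), and were treated as paired by their replicate numbers, although differently numbered C57 libraries reached 0.452 (IL-4 replicate 3 with basal replicate 4) and 0.272. Replicates differed beyond sampling noise (chi-square per degree of freedom 1.41 to 17.5 in 99 comparisons) and 0 were identical. The labels do not tie replicates to separate mice, so p-values measure the spread between libraries, which may be technical. Left out were 4 value columns that matched no sample label and the input libraries.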

Additional observations from a re-analysis of the deposited data

Results flagged for a closer look

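Among 44 promoter regions of these genes with 4 basal Pol II libraries in C57, 2 had a library far from the others, and chance gives about 1 such group in 20. At Tpi1 (triose phosphate isomerase), 64 bp from the start, the libraries ran from 230.87 to 367.51 tags, and the gap of the outlying library was 0.856 of that range. At Aldoa, at -57 bp, they ran from 13.4 to 43.54 tags, with a gap of 0.887 of the range.

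In 7 regions matched across strains, all IL-4 libraries lay above the basal ones in 1 strain and below them in another, and in 3 of these both differences exceeded 1.5-fold. The share of all matched regions that did so is not given here, so these counts are no result about these genes. The differences between the strains were not tested. At -14336 bp from Fh1, H3K27ac was 1.72-fold higher in SPRET and up to 1.76-fold lower in BALB and NOD. At 3813 bp from the start of Pfkl it was 2.47-fold higher in PWK and 2.04-fold lower in C57. At -2635 bp from Aldoa, Pol II was 2.12-fold higher in BALB, where the median of all regions was also higher, and 1.53-fold lower in NOD.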

How the results depend on the processing

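limma called 2 regions of these genes for H3K27ac over the 5 strains, and 1 with a filter on low regions, 1 with median-ratio scaling, 4 with DESeq2 and 1 to 4 on leaving out any 1 library. For Pol II it called 4, with 10 by DESeq2 and 2 to 6 on leaving out a library. H3K4me2 went from 0 to between 0 and 108 on leaving out a library (108 without C57 IL-4 replicate 1, 82 without BALB IL-4 replicate 1, 49 without NOD basal replicate 1, 24 without SPRET basal replicate 1), and H3K4me3 from 0 to 1 with edgeR and 1 with DESeq2. In the time course H3K27ac went from 7 to 14 with DESeq2 and to between 1 and 83 on leaving out a library (83 without 1 h replicate 1), Pol II from 0 to 1 with DESeq2, and EGR2 from 0 to 2 with DESeq2 and to between 0 and 4. The 3 genotype calls became 2 to 3. The share of all regions called under these alternatives is not given here, so the larger counts are no result about these genes.

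With the replicate block, in which same-numbered libraries are paired, the calls were 99 for H3K27ac, 33 for Pol II, 52 for H3K4me2, 75 for H3K4me3, 39 in the time course of H3K27ac and 5 for genotype. The share of all regions called this way is given only for Pol II of C57 (0.809%), PWK (9.78%) and SPRET (8.39%). Without such shares the other counts are no result about these genes. Outside Pol II of C57, PWK and SPRET at most 2 replicate numbers were shared, fewer than the 3 pairs required here to treat libraries as paired. Their r was 0.507 to 0.729 for H3K27ac, 0.211 to 0.470 for H3K4me2 and 0.515 to 0.732 for H3K4me3, and the labels do not say what the numbers mark.

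By the rule of size, 6 higher H3K27ac regions became 15 with no minimum, 14 at 2-fold and 4 to 9 on leaving out a library. The 13 lower ones became 7 with a pseudocount of 5, 7 with median-ratio scaling, 45 at 2-fold and 12 to 27 on leaving out a library (27 without C57 IL-4 replicate 2, 26 without C57 basal replicate 1, 22 without BALB IL-4 replicate 1). The 7 higher Pol II regions became 29 at 2-fold and 4 to 20 on leaving out a library (20 without BALB IL-4 replicate 2), the 0 lower ones 4 and 0 to 2, and the 3 higher in both marks became 6 at 2-fold. The 552 distal regions became 350 within 10 kb. Where a fold threshold, distance or minimum was changed the counts follow from it, and otherwise the cause was not tested. None of the 16 called regions and the 26 past the rule of size reversed under the alternatives run for them, while 60 of 187 values of the 16 called regions lost the call. For the 26 past the rule of size, 1 of 166 values moved. This last count is not one of regions that stopped passing the rule, since the 13 lower H3K27ac regions became 7 with a pseudocount of 5. At the minimum of 16 tags a library held 7.51 to 46.5 reads, which limits the precision of weak regions.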
